A study of Cricetulus griseus with 6 samples.

Results

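The enzymes described here add or remove methyl and acetyl groups on histones, other proteins and DNA. They were picked by gene symbol: histone lysine methyltransferases (Kmt, Setd, Suv, Ehmt, Ezh, Smyd), protein arginine methyltransferases (Prmt), lysine demethylases (Kdm), DNA methyltransferases and Tet oxygenases, lysine acetyltransferases (Kat), and the deacetylases of the Hdac and Sirt families. On the array, 89 probe sets with a single gene symbol matched, for 76 genes of the 14899 named genes, and each gene was represented by the brightest of its probe sets, on average across all 6 arrays. A further 6 genes (Dnmt3l, Hdac3, Kdm3b, Setd6, Smyd5 and Suv39h2) shared their probe sets with another gene and were not analysed here.

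The samples were 6 suspension flasks of CHO-K1, a line derived from the ovary of the Chinese hamster and used for protein production, all in the same serum-free SFM-F10 medium. In 3 flasks the medium held 1 mg/l putrescine, and in the other 3 it held none, per the series text with no other polyamine or ornithine either. RNA was taken on day 3 and each flask was hybridised to its own whole-transcript array. The flasks are labelled biological triplicates of 1 line, so the p-values set the group difference against the spread between flasks of that line. The mesenchymal marker Vim was at 12.09 with and 12.06 without putrescine on the log2 scale. The ovarian follicle genes Fshr, Inha and Zp3 lay between 3.13 and 4.43, within the range of 17 measured markers of other tissues (2.76 to 5.73, median 4.05, means over the 6 arrays). A further measured ovarian marker, Star, lay above that range in both groups and rose without putrescine.

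Methyl marks are written with S-adenosylmethionine as the donor, the same molecule that, once decarboxylated, supplies the aminopropyl groups of spermidine and spermine. Acetyl marks are written with acetyl-CoA, which is also used when polyamines are acetylated for export. Methyl groups are taken off lysines either by flavin-dependent amine oxidases (Kdm1a and Kdm1b, relatives of the polyamine oxidases) or by Jumonji enzymes, which like the Tet oxygenases need iron and 2-oxoglutarate. Acetyl groups are removed by zinc-dependent Hdac enzymes and by sirtuins, which consume NAD. Polyamines themselves bind nucleic acids and chromatin.

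Without putrescine, 13 of the 76 genes rose and 17 fell, while 46 did not pass the test (limma on the log2 values, Benjamini-Hochberg adjusted p under 0.05 over all 29700 probe sets). The changes were small: 10 of the 30 called genes differed at least 1.5-fold and 0 at least 2-fold, and the median size of a called difference was 0.53 on the log2 scale. The largest rises were in the DNA demethylation gene Tet3 (1.62-fold) and the deacetylase gene Hdac9 (1.53-fold). The largest falls were in the deacetylase gene Hdac4 (1.92-fold), the actin histidine methyltransferase gene Setd3 (1.87-fold) and the histone H4 acetyltransferase gene Kat8 (1.87-fold). The median log2 difference over the 76 genes was -0.02, against 0.01 over all probe sets.

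The share that changed was close to that of other genes at similar signal. Over all probe sets 24.4% were called, 13.2% higher and 11.2% lower, and over named genes 30.0%, with 15.8% higher and 14.2% lower. Among the 10248 named genes whose signal reached the median of the other-tissue markers 42.3% were called, 22.2% higher and 20.1% lower. Of the enzyme genes 73 lay at or above that level, and 41.1% of them were called. The values of the 2 groups did not overlap for 56.6% of the enzyme genes, compared with 37.5% of all probe sets, 44.5% of named genes and 59.4% of named genes at or above the marker level. The median absolute difference was 0.24 for the enzymes and 0.26 for named genes at or above the marker level. The enzymes below the marker level, Tet1, Prmt8 and Hdac11, did not pass the test.

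**Figure D1:**
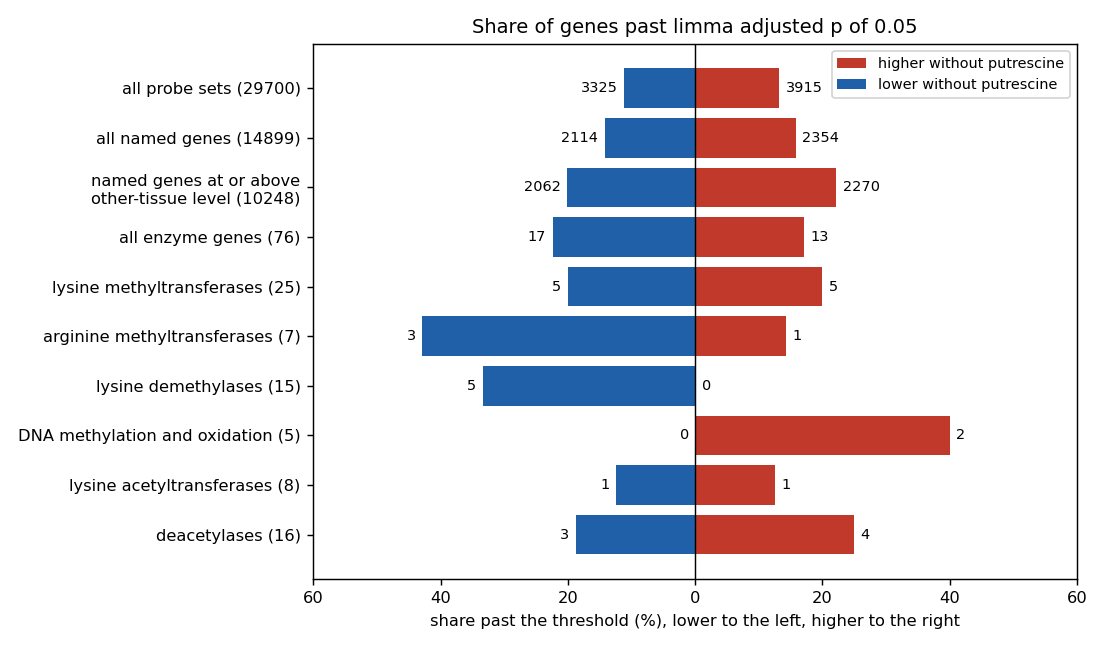
Bars show the share of genes past the threshold (limma adjusted p under 0.05), lower without putrescine to the left and higher to the right, for all probe sets, all named genes, named genes at or above the other-tissue marker level, all 76 enzyme genes and each enzyme family; the number of genes is in brackets and the number called is at the end of each bar. The enzyme genes, with 17 lower and 13 higher, have shares close to those of named genes at or above the marker level, and the lysine demethylases have 5 lower and 0 higher.

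**Figure D2:**
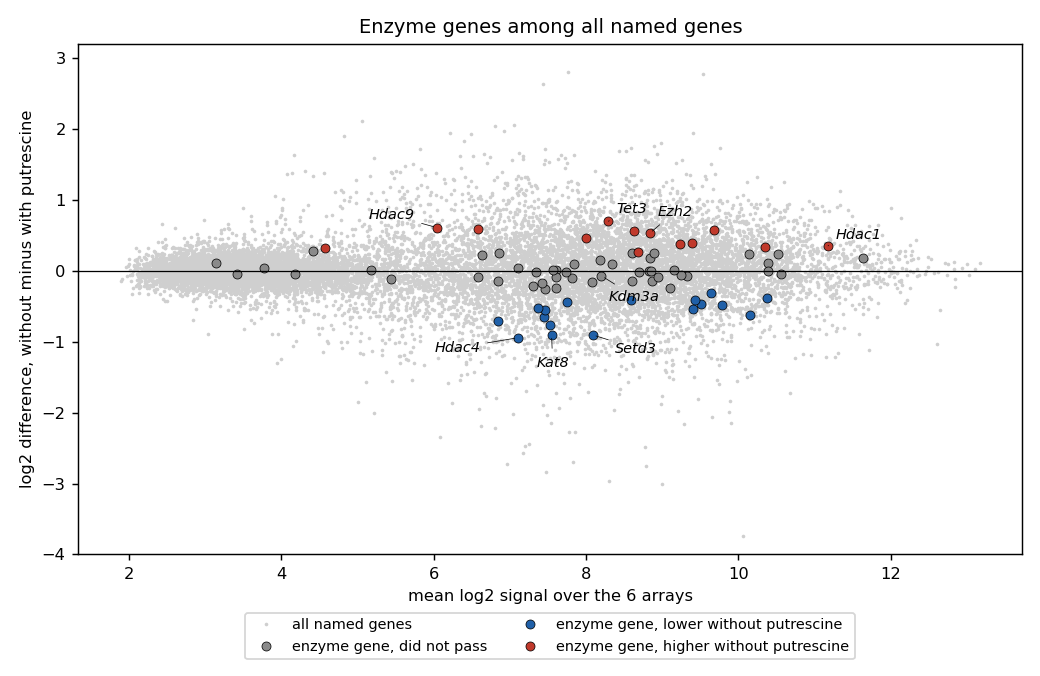
Each point is a named gene, with its mean log2 signal over the 6 arrays on the x axis and its log2 difference, without minus with putrescine, on the y axis; enzyme genes are outlined and coloured by result. All enzyme genes lie between -0.94 and 0.70, inside the cloud of other genes, whose differences run from -3.74 to 2.81.

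Of 25 lysine methyltransferase genes 5 rose, 5 fell and 15 did not pass, with a median log2 difference of -0.05. With any 1 array left out, 3 rose. Setd7, which monomethylates histone H3 and several non-histone proteins, had 9.40, 9.41 and 9.35 with putrescine and 10.02, 9.98 and 9.89 without. All 3 values without putrescine lay above those with it, a rise of 0.58 on the log2 scale (SE 0.08; limma adjusted p = 0.0011). A further probe set of Setd7 rose by 0.37. Ezh2, the catalytic subunit of Polycomb repressive complex 2, had 8.73, 8.52 and 8.46 with and 9.07, 9.08 and 9.14 without putrescine. The groups did not overlap, and Ezh2 rose 1.44-fold (log2 difference 0.53, SE 0.10; limma adjusted p = 0.00394).

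Ezh1, the paralogue that can replace Ezh2 in the complex, had 7.68, 7.88 and 8.03 with and 7.80, 7.81 and 7.68 without putrescine, with overlapping groups, and did not pass the test. The 95% interval of its log2 difference was -0.34 to 0.14, and that of Ezh2 was 0.31 to 0.74. Suv39h1, which trimethylates lysine 9 of histone H3 in heterochromatin, had 7.58, 7.80 and 7.93 with and 8.24, 8.14 and 8.32 without putrescine. It rose 1.38-fold (limma adjusted p = 0.014), although its call was lost without no-putrescine replicate 3, at adjusted p = 0.0528.

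The other rises in this family, in the SET and MYND domain genes Smyd1 and Smyd3, were the weakest calls. Smyd3 had 8.55, 8.63 and 8.49 with and 8.81, 8.80 and 8.84 without putrescine, a log2 difference of 0.26 (limma adjusted p = 0.047), and its further probe set had 0.22 and did not pass. The call of Smyd3 was lost in each of the 6 fits with 1 array left out, at adjusted p from 0.0657 to 0.147. Smyd1, known from striated muscle, was within the range of the other-tissue markers (2.76 to 5.73), at 4.47, 4.51 and 4.26 with and 4.77, 4.83 and 4.62 without putrescine (log2 difference 0.33, limma adjusted p = 0.047). Its call was lost in 5 of the 6 such fits, all but that without no-putrescine replicate 3, at adjusted p from 0.0601 to 0.151.

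Setd3 showed the largest fall of the lysine methyltransferase family. It had 8.54, 8.59 and 8.48 with and 7.60, 7.67 and 7.63 without putrescine, a log2 difference of -0.90 (SE 0.08; limma adjusted p = 0.000127). Its product carries a SET domain but methylates a histidine of actin. Kmt5b, which adds the second and further methyl groups to lysine 20 of histone H4, had 7.09, 7.19 and 7.30 with and 6.40, 6.42 and 6.65 without putrescine. It was 1.63-fold lower (limma adjusted p = 0.00131), with no overlap between the groups.

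The other H4K20 enzymes did not pass. Kmt5a, which adds the first methyl group and is regulated through the cell cycle, had 10.57, 10.58 and 10.58 with and 10.69, 10.49 and 10.41 without putrescine, a log2 difference of -0.05 (95% interval -0.26 to 0.17), and Kmt5c had 0.01 (-0.26 to 0.28). The mean log2 signal of Kmt5c, 5.18, was within the range of the other-tissue markers. Ehmt2, also known as G9a, methylates lysine 9 of histone H3 in euchromatin. It had 10.05, 9.97 and 10.07 with and 9.61, 9.56 and 9.47 without putrescine and was 1.40-fold lower (limma adjusted p = 0.0031). Its heterodimer partner Ehmt1 had 7.68, 7.55 and 7.57 with and 7.62, 7.63 and 7.57 without putrescine, a log2 difference of 0.01 (95% interval -0.18 to 0.19).

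Setd1a, the catalytic subunit of a COMPASS complex that methylates lysine 4 of histone H3, had 8.05, 7.92 and 7.96 with and 7.62, 7.69 and 7.29 without putrescine. It was 1.36-fold lower (limma adjusted p = 0.023), a call lost without with-putrescine replicate 1 (adjusted p = 0.0738) and without with-putrescine replicate 3 (adjusted p = 0.0557). Its paralogue Setd1b had a wide spread without putrescine, at 8.26, 8.11 and 7.64, and did not pass. Setd5 had 10.57 ± 0.06 with and 10.18 ± 0.03 without putrescine (SD, n = 3) and fell by 0.39 on the log2 scale. The members that did not pass lay between -0.26 (Smyd2) and 0.25 (Kmt2d). Kmt2a, another H3K4 methyltransferase, had 10.46, 10.42 and 10.30 with and 10.55, 10.31 and 10.31 without putrescine (95% interval of the log2 difference -0.23 to 0.22). Setd2, which trimethylates lysine 36 of histone H3, had 9.26, 9.46 and 9.34 with and 9.38, 9.16 and 9.32 without putrescine. Setdb1, which methylates H3K9 at silenced repeats, had 7.96, 8.14 and 8.21 with and 8.17, 8.33 and 8.25 without putrescine (log2 difference 0.15). The groups overlapped in all 3 genes, and none passed.

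**Figure D3:**
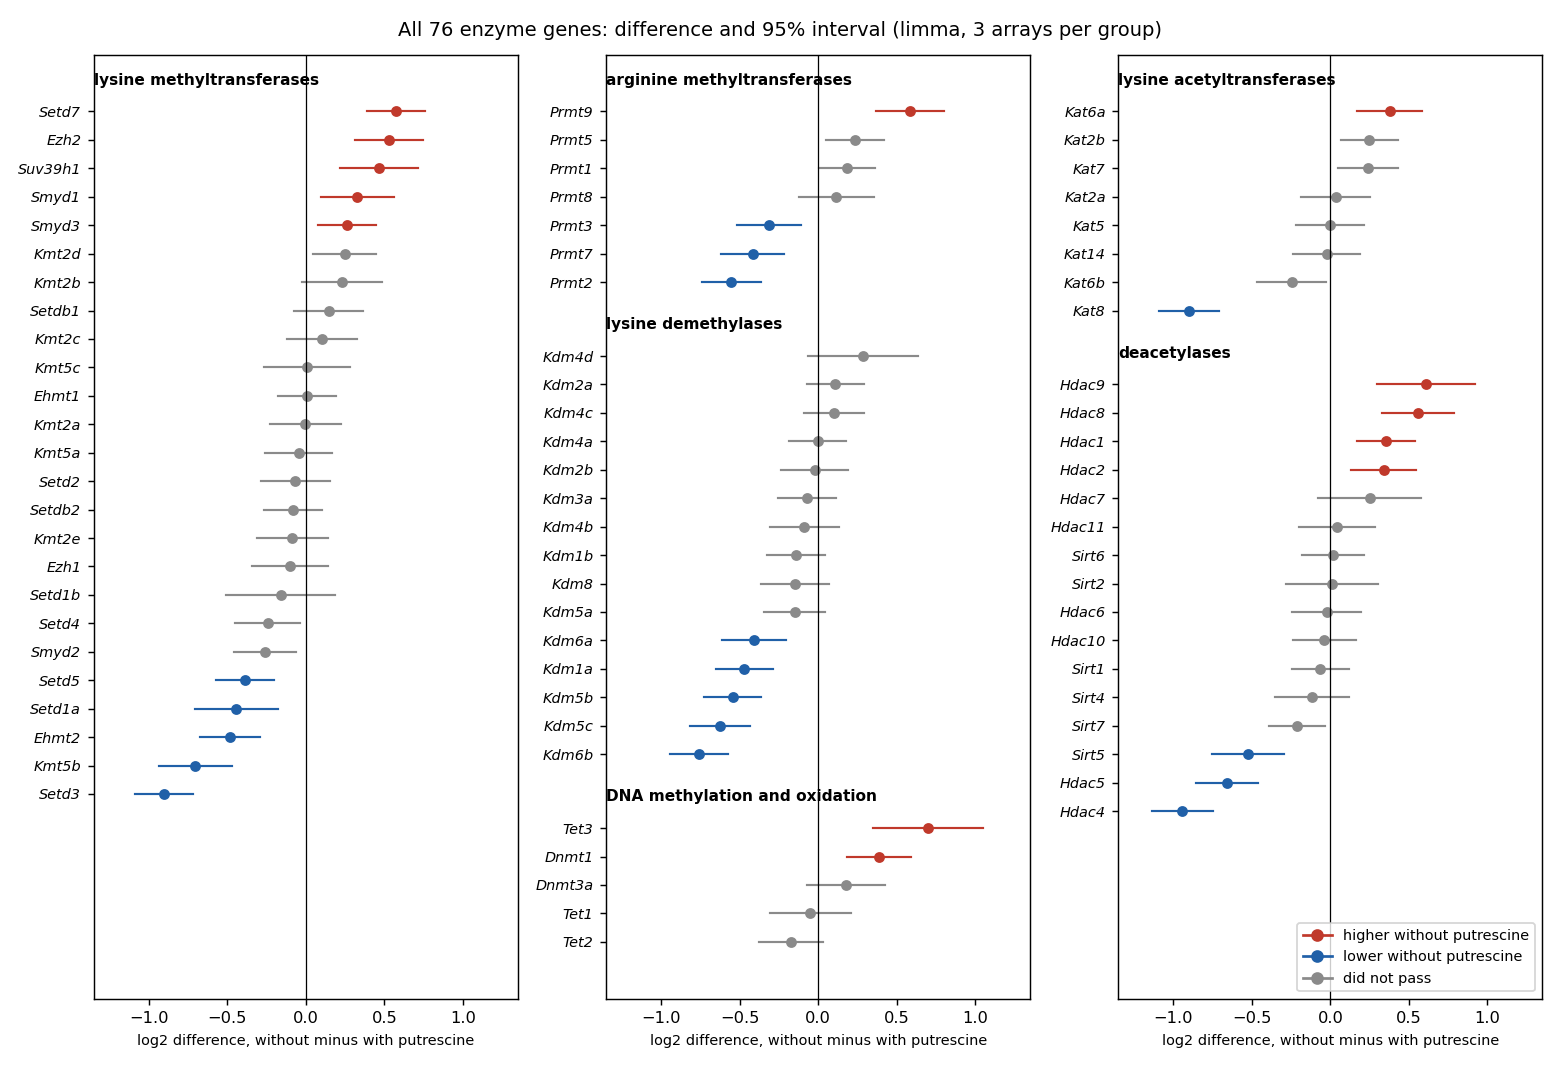
Each point is the log2 difference of 1 enzyme gene, without minus with putrescine, and the line is its 95% interval from limma with 3 arrays per group; genes are ordered by difference within each family and coloured by whether they passed the adjusted threshold. The lysine demethylases that passed, Kdm6a, Kdm1a, Kdm5b, Kdm5c and Kdm6b, are all on the lower side. The 2 genes of DNA methylation and oxidation that passed are on the higher side, and the remaining families have calls on both sides.

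Among 7 arginine methyltransferase genes 1 rose, 3 fell and 3 did not pass (median log2 difference 0.12). That called share, 57.1% of few genes, stands beside 42.3% of named genes at or above the marker level, and the difference was not tested. Prmt9, which dimethylates a splicing factor, had 6.19, 6.39 and 6.27 with and 6.86, 6.77 and 6.98 without putrescine, a 1.5-fold rise (limma adjusted p = 0.00227). Prmt2 had 7.82, 7.68 and 7.70 with and 7.14, 7.19 and 7.21 without putrescine, a 1.47-fold fall (limma adjusted p = 0.00149). In both genes the groups were clearly apart.

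Prmt7, which makes monomethylarginine, was 1.33-fold lower (8.79 ± 0.11 with and 8.38 ± 0.04 without putrescine, SD, n = 3), and its further probe set fell by 0.40 on the log2 scale. Prmt3, which methylates a ribosomal protein, had 9.72, 9.89 and 9.76 with and 9.53, 9.39 and 9.51 without putrescine (limma adjusted p = 0.0317). Prmt3 kept its call when with-putrescine replicate 1 was dropped and lost it when any other array was, at adjusted p from 0.0541 to 0.113. Prmt1 and Prmt5, which make most asymmetric and symmetric dimethylarginine in cells, had log2 differences of 0.18 and 0.23. Prmt1 had 11.50, 11.57 and 11.55 with and 11.74, 11.71 and 11.72 without putrescine. Prmt5 had 10.32, 10.42 and 10.45 with and 10.64, 10.59 and 10.66 without putrescine. Their groups did not overlap, but neither passed (limma adjusted p = 0.131 and 0.0722).

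Of 15 lysine demethylase genes 0 rose, 5 fell and 10 did not pass, with a median log2 difference of -0.14. Without an adjustment, at p under 0.05, the count of rises was also 0 and that of falls was 5. The called share was 33.3%, below the 42.3% of named genes at or above the marker level (22.2% higher, 20.1% lower). Whether the direction of the calls differs from that background was not tested. Kdm6b, a Jumonji enzyme that removes methyl groups from lysine 27 of histone H3, had 7.95, 7.90 and 7.85 with and 7.18, 7.16 and 7.08 without putrescine. It was 1.69-fold lower (log2 difference -0.76, SE 0.08; limma adjusted p = 0.000284), with wide separation of the groups. Kdm6a, its X-linked relative in mammals, had 9.60, 9.70 and 9.59 with and 9.11, 9.23 and 9.32 without putrescine, a 1.33-fold fall (limma adjusted p = 0.00999). The further probe set of Kdm6a had -0.29 and did not pass (adjusted p = 0.0666).

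Kdm5b and Kdm5c, which demethylate lysine 4 of histone H3, fell by 0.54 and 0.62 on the log2 scale. Kdm5c had 10.56, 10.41 and 10.43 with and 9.87, 9.86 and 9.80 without putrescine (limma adjusted p = 0.00087). Kdm5b had 9.66, 9.71 and 9.67 with and 9.07, 9.17 and 9.17 without putrescine (limma adjusted p = 0.00137), and its further probe set fell by 0.30. The third measured paralogue, Kdm5a, had -0.15 in one probe set and 0.18 in the other, and neither passed. Kdm1a, also known as LSD1, had 9.77, 9.73 and 9.73 with and 9.26, 9.34 and 9.22 without putrescine and was 1.39-fold lower (limma adjusted p = 0.00287). Kdm1b had -0.14 (95% interval -0.33 to 0.05).

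Kdm3a, which removes methyl groups from lysine 9 of histone H3 and is known to be induced by hypoxia, did not pass the test. It had 8.19, 8.28 and 8.24 with and 8.23, 8.13 and 8.14 without putrescine, and the groups overlapped. Its log2 difference was -0.07 (SE 0.08; limma adjusted p = 0.612), and the 95% interval was -0.25 to 0.11. The adjusted p of Kdm3a was 0.44 to 0.795 over the alternatives tried. The Kdm4 genes, which act on lysine 9 and, except for Kdm4d, also on lysine 36, lay between -0.09 (Kdm4b) and 0.29 (Kdm4d). Kdm4d, with a mean log2 signal of 4.42, was within the range of the other-tissue markers. Kdm2a, Kdm2b and Kdm8 had 0.11, -0.02 and -0.15. The further probe sets of Kdm4c, Kdm4d and Kdm2a had 0.35, -0.03 and -0.12, and none passed.

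**Figure D4:**
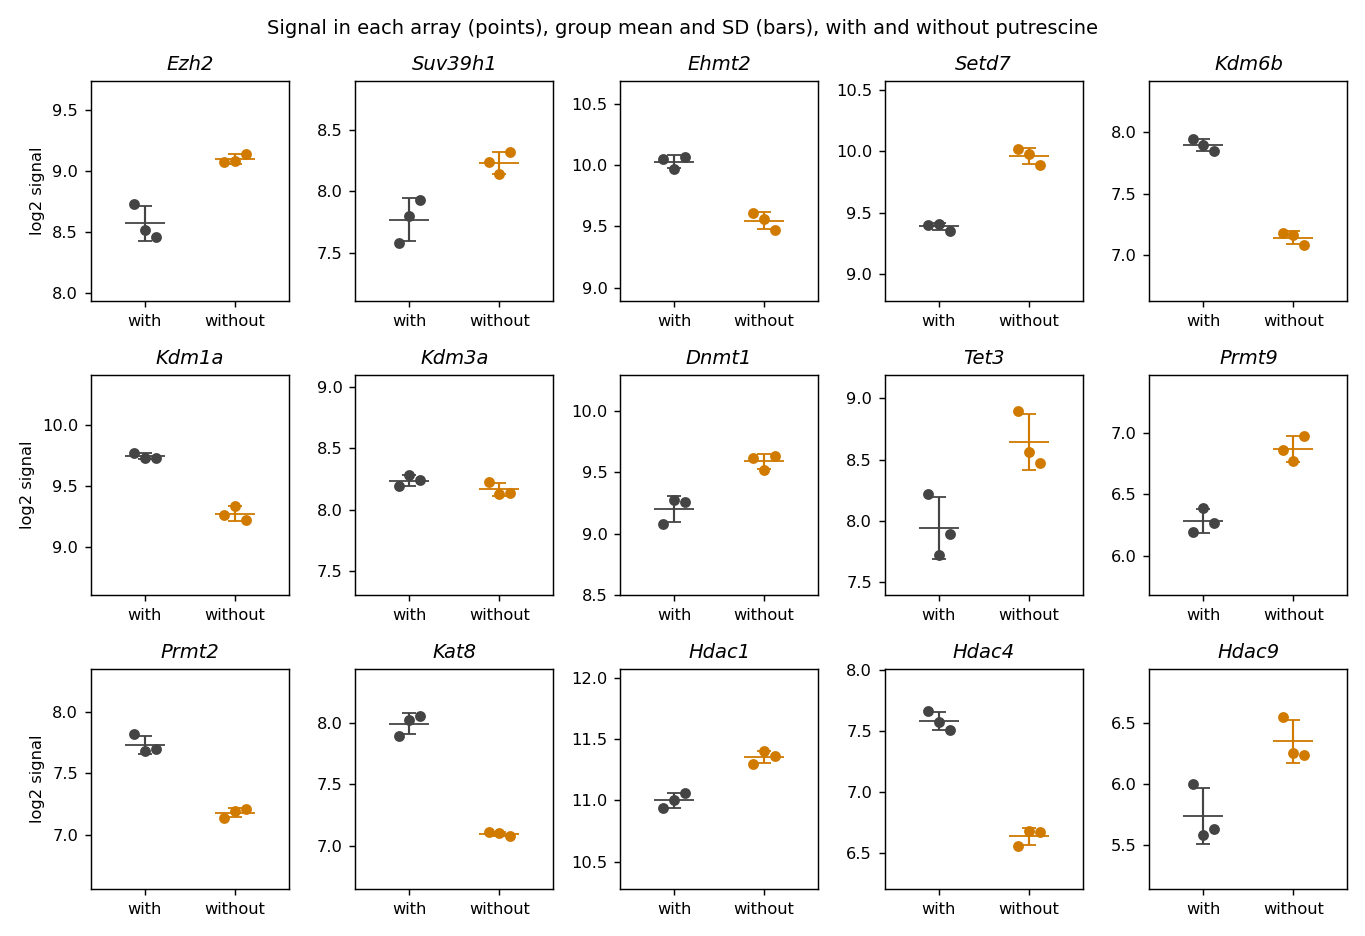
Points are the log2 signal of each array for 15 enzyme genes, with the group mean and SD as bars, with putrescine on the left and without on the right of each panel; every panel spans the same range of log2 signal. Kdm3a is the gene shown whose groups overlap; in Tet3 and Hdac9 replicate 1 is the highest array of each group.

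Among 5 genes of DNA methylation and oxidation 2 rose, 0 fell and 3 did not pass (median log2 difference 0.18). At p under 0.05 without adjustment the counts were the same. Dnmt1, which copies methylation onto newly replicated DNA, had 9.08, 9.27 and 9.26 with and 9.62, 9.52 and 9.63 without putrescine, a 1.31-fold rise (limma adjusted p = 0.0133). Its further probe set rose by 0.59 on the log2 scale. Dnmt3a, a de novo methyltransferase, had 8.95, 8.58 and 8.72 with and 8.96, 8.96 and 8.86 without putrescine, and with overlapping groups it did not pass.

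Tet3, which oxidises methylated cytosine, had 8.22, 7.72 and 7.89 with and 8.90, 8.56 and 8.47 without putrescine. The groups did not overlap, although both spread widely, and the rise was 1.62-fold (log2 difference 0.70, SE 0.15; limma adjusted p = 0.0104). Tet2 had 7.52, 7.53 and 7.49 with and 7.48, 7.27 and 7.27 without putrescine (limma adjusted p = 0.22). Tet1 had 3.65, 3.28 and 3.38 with and 3.33, 3.50 and 3.33 without putrescine, below the median of the other-tissue markers.

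Of 8 lysine acetyltransferase genes 1 rose, 1 fell and 6 did not pass (median log2 difference 0.01). Kat8, also known as MOF, acetylates lysine 16 of histone H4. It had 7.90, 8.03 and 8.06 with and 7.11, 7.10 and 7.08 without putrescine, a log2 difference of -0.90 (SE 0.08; limma adjusted p = 0.000151) with no overlap. Kat6a, also known as MOZ, had 9.07, 9.05 and 9.02 with and 9.47, 9.28 and 9.52 without putrescine and was 1.30-fold higher (limma adjusted p = 0.0161). The Kat6a call did not survive dropping replicate 3 of the putrescine flasks, or replicate 1 or 3 of the deprived ones, at adjusted p from 0.0527 to 0.0542, and the family then had 0 rises.

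Its paralogue Kat6b had a log2 difference of -0.25 in its brighter probe set and did not pass there (adjusted p = 0.105), while its further probe set fell by 0.49 (limma adjusted p = 0.00415). Kat2b, also known as PCAF, had 8.80, 8.80 and 8.71 with and 9.06, 8.98 and 9.01 without putrescine. Kat2b and Kat7 had log2 differences of 0.25 and 0.24 without overlap between the groups but did not pass (limma adjusted p = 0.055 and 0.0724). Kat2a, also known as GCN5, had 7.17, 6.99 and 7.09 with and 7.18, 7.19 and 6.98 without putrescine. Kat5, also known as Tip60, had 8.70, 8.82 and 8.98 with and 8.84, 8.87 and 8.78 without putrescine (95% interval of the log2 difference -0.22 to 0.21). Both overlapped between the groups, and Kat14 had a log2 difference of -0.02.

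Of 16 deacetylase genes 4 rose, 3 fell and 9 did not pass (median log2 difference -0.01). This called share of 43.8% was near the 42.3% of named genes at or above the marker level. The measured class I genes Hdac1, Hdac2 and Hdac8 all rose. Hdac1 had 10.94, 11.00 and 11.06 with and 11.30, 11.40 and 11.36 without putrescine, a 1.28-fold rise (limma adjusted p = 0.013). Hdac8, which deacetylates a cohesin subunit among other targets, had 8.42, 8.18 and 8.46 with and 8.84, 8.91 and 8.99 without putrescine, a 1.47-fold rise (limma adjusted p = 0.00385).

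Hdac2, which works with Hdac1 in the Sin3, NuRD and CoREST complexes, had 10.16, 10.24 and 10.12 with and 10.43, 10.47 and 10.64 without putrescine (limma adjusted p = 0.0248). Dropping replicate 1 or 3 of the putrescine flasks, or replicate 2 or 3 of the deprived ones, took the Hdac2 call away (adjusted p from 0.0517 to 0.082). The class IIa genes, whose products shuttle between nucleus and cytoplasm and bind MEF2 factors, differed in direction.

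Hdac4 had 7.66, 7.57 and 7.51 with and 6.56, 6.68 and 6.67 without putrescine. This log2 difference of -0.94 (SE 0.09; limma adjusted p = 0.000139) was the largest in size among the 76 genes. Hdac5 had 7.80, 7.80 and 7.71 with and 7.15, 7.18 and 7.01 without putrescine and was 1.58-fold lower (limma adjusted p = 0.000781). Hdac9 had 6.0, 5.58 and 5.63 with and 6.55, 6.25 and 6.24 without putrescine and was 1.53-fold higher (limma adjusted p = 0.0113). Hdac7 had 0.25 with overlapping groups and did not pass.

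The class IIb and class IV genes Hdac6, Hdac10 and Hdac11 lay between -0.04 and 0.04 and did not pass. Hdac10 and Hdac11, with mean log2 signals of 4.18 and 3.77, were within the range of the other-tissue markers. Among the sirtuins, Sirt5, a mitochondrial enzyme that removes succinyl and malonyl groups, had 7.56, 7.78 and 7.55 with and 6.98, 7.16 and 7.17 without putrescine. It was 1.44-fold lower (limma adjusted p = 0.0052). Sirt1 had 9.27, 9.31 and 9.24 with and 9.17, 9.18 and 9.28 without putrescine. The nuclear enzymes Sirt1, Sirt6 and Sirt7 had -0.06, 0.02 and -0.21, and Sirt7 had no overlap between the groups but did not pass (adjusted p = 0.0882). Sirt2 had a wide spread without putrescine, at 9.41, 9.16 and 8.91, and Sirt4 had -0.12. Sirt4, with a mean log2 signal of 5.44, was also within the range of the other-tissue markers.

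Grouping the enzymes by residue or class, a grouping made after the values were seen and given without a test, set writers beside erasers. These groups hold few genes, and among named genes at or above the marker level 22.2% were called higher and 20.1% lower. Such small counts cannot show that a group departs from that background. Of 5 genes that demethylate H3K4, 3 fell and 0 rose (median log2 difference -0.47). Of the 6 genes counted as its methyltransferases (Kmt2a to Kmt2d, Setd1a and Setd1b), 1 fell and 0 rose (median 0.05). Setd7, Smyd1 and Smyd3, which rose, were not placed in any residue group, although Setd7 also methylates histone H3. The count of 0 rises therefore holds for those 6 listed genes alone and not for every gene that may methylate H3K4. Of 2 genes that methylate H3K27, Ezh2 rose and Ezh1 did not pass (-0.10, with overlapping groups), and of 2 that demethylate it, Kdm6a and Kdm6b, both fell. At H3K9 the writers Suv39h1 and Ehmt2 moved in opposite directions, and none of the 5 demethylase genes Kdm3a and Kdm4a to Kdm4d passed (0 at an unadjusted p under 0.05 as well). Differences between paralogues or between groups of enzymes were not tested.

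**Figure D5:**
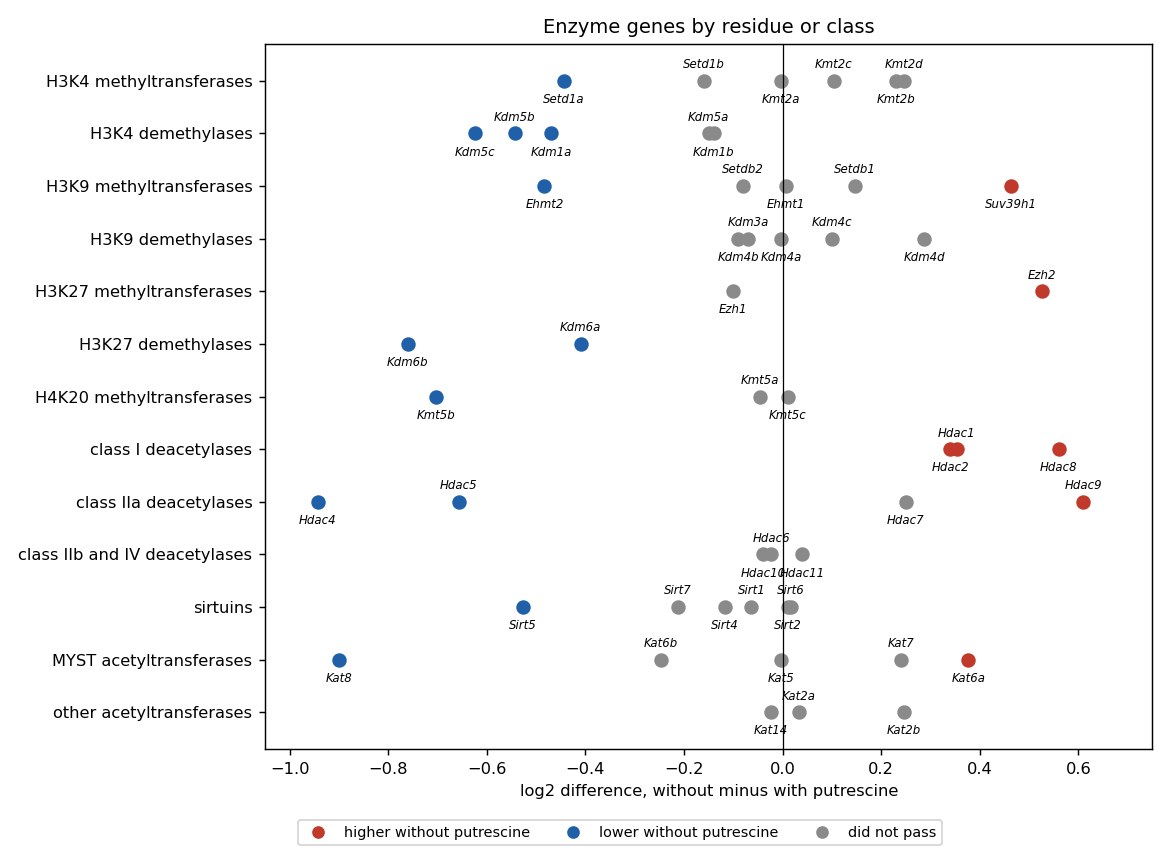
Each point is the log2 difference of 1 enzyme gene, without minus with putrescine, in rows by the residue the enzyme acts on or by its class, coloured by whether it passed the adjusted threshold. The class I deacetylase genes lie from 0.34 to 0.56, the H3K27 demethylase genes at -0.76 and -0.41, and the class IIa genes spread from -0.94 to 0.61.

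Partners of these enzymes were counted from lists of complex subunits and related genes, to be read against the 30.0% of all named genes and the 42.3% of named genes at or above the marker level that were called. The called share was 34.6% of HDAC corepressors, 34.5% of mark readers, 39.4% of other writers and erasers, 33.3% of S-adenosylmethionine and acetyl-CoA supply, 30.0% of 2-oxoglutarate, NAD and iron supply and 43.8% of DNA methylation readers, all near or below those shares. It was 52.9% of acetyltransferase complex partners, 53.8% of COMPASS and MLL partners, 60% of histone chaperones and 71.4% of PRC2 partners, the last from 7 genes, and whether these shares differ from the background was not tested. Of 7 measured PRC2 partners 3 rose and 2 fell (median log2 difference 0.27). Jarid2 fell by 0.59 on the log2 scale (limma adjusted p = 0.00114), Phf1 by 0.43 (adjusted p = 0.0253), and Mtf2 was higher by 0.36 (adjusted p = 0.0196). The core subunit gene Eed rose by 0.31 (adjusted p = 0.0298), and Suz12 had 0.28 and did not pass (adjusted p = 0.0756). The count of rises was 0 to 2 with 1 array left out, 2 only without no-putrescine replicate 1: the call of Mtf2 was lost without no-putrescine replicate 3 and with-putrescine replicates 2 and 3. That of Phf1 was lost without no-putrescine replicates 2 and 3 and with-putrescine replicates 1 and 3.

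Of 13 COMPASS and MLL partners 6 rose and 1 fell (median 0.11). Dpy30, a subunit common to all of these complexes, was 1.72-fold higher (limma adjusted p = 0.000328), Cxxc1, which brings Setd1 complexes to CpG islands, was 1.51-fold higher, and Pagr1 was 1.45-fold lower. The count of COMPASS rises was 3 without no-putrescine replicate 1 and without with-putrescine replicate 3, and 2 fell without no-putrescine replicate 1. Of 26 HDAC corepressor partners 3 rose and 6 fell (median -0.00), among them the scaffold gene Sin3a (1.49-fold lower), Sap30 (1.48-fold lower) and Sap18 (1.5-fold higher). Of 34 acetyltransferase complex partners 8 rose and 10 fell (median -0.16). Supt20h and Supt7l, both of the SAGA complex, had -0.61 and 0.70, and Msl3, a partner of Kat8, had 0.58. Without no-putrescine replicate 1, and likewise without with-putrescine replicate 2, 5 of these partners rose.

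Among 33 other writers and erasers with names outside the symbol rule 7 rose and 6 fell (median 0.06). Esco2, which acetylates cohesin during replication, was 2.47-fold higher (limma adjusted p = 0.000121), Hat1, which acetylates newly made histone H4, was 2.02-fold higher, and Naa60 was 2.05-fold lower. Of 16 readers and cofactors of DNA methylation 5 rose and 2 fell (median 0.02). Uhrf1, which recruits Dnmt1 to hemimethylated DNA, was 2.28-fold higher (7.96 ± 0.21 with and 9.14 ± 0.09 without putrescine, SD, n = 3; limma adjusted p = 0.000193), its relative Uhrf2 was 1.82-fold lower and Mbd5 1.73-fold lower.

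Of 29 readers of acetyl and methyl marks 8 rose and 2 fell (median 0.08), including Brd9 (1.57-fold higher), L3mbtl2 (1.82-fold) and the corepressor gene Trim28 (1.68-fold). In each fit with 1 array left out other than that without no-putrescine replicate 1, 0 or 1 of these readers fell, 0 without replicate 3 of either group. Of 10 histone chaperones 5 rose and 1 fell (median 0.33), with Asf1b 1.98-fold and Anp32e 1.63-fold higher and Daxx 2.20-fold lower, and 2 chaperones fell without no-putrescine replicate 1. In the list of S-adenosylmethionine and acetyl-CoA supply 1 of 15 rose and 4 fell (median -0.05). Ahcy, which clears S-adenosylhomocysteine, was 1.43-fold higher, the methionine synthase gene Mtr 1.37-fold lower and the acetyl-CoA transporter gene Slc33a1 1.69-fold lower. In the list of 2-oxoglutarate, NAD and iron supply 3 of 20 rose and 3 fell (median -0.02). Its smallest p belonged to the transferrin receptor gene Tfrc, at 6.36 with and 9.17 without putrescine, and the nuclear NAD synthesis gene Nmnat1 was 1.47-fold lower. Dropping any array other than with-putrescine replicate 1 brought the falls in that list down to 1.

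Lists of other gene groups were counted in the same fit. Of 33 measured proliferation genes 26 rose and 0 fell, with 0 falls at an unadjusted p under 0.05 too and a median log2 difference of 0.58. E2f8, Mcm10 and Tk1, the ones with the smallest p, rose 3.51-fold, 2.87-fold and 2.61-fold. Their mean log2 signal was 8.43 to 8.48 in the flasks with putrescine and 9.11 to 9.15 in those without. Among the 76 enzyme genes 13 rose and 17 fell. In RNA from whole cultures, more cells in S phase and more RNA per cell cannot be told apart, and the part of the proliferation genes in the rises of these enzymes was not tested. Of 23 hypoxia-responsive genes 7 rose and 7 fell (median -0.10), with Adm 3.07-fold and Slc2a1 1.79-fold higher and Pdk1 3.35-fold lower, beside no call in Kdm3a. Of the 17 markers of other tissues 1 rose and 1 fell, Apoa2 and Tnnt2, and their mean log2 signal was 4.15 to 4.17 with and 4.03 to 4.11 without putrescine. Of 5 measured markers of the line and of ovary 1 rose and 0 fell by limma, with 0 falls by unadjusted p as well: Star, which brings cholesterol into steroid-making mitochondria, had 6.42 with and 7.09 without putrescine (limma adjusted p = 0.00277).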

How the data were processed

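RNA of 6 CHO-K1 flasks, 3 per group, was measured on Affymetrix whole-transcript arrays. The deposited values are normalised log signals per probe set, 1.55 to 13.66 with array medians of 4.92 to 4.98. Transcriptome Analysis Console is named in the submitters' processing notes, with no version or normalisation method. Which base the logs have is unstated too, and log2 was assumed, so every fold change rests on that reading of the deposited values. Of 29700 probe sets, 16481 had 1 gene symbol in the platform annotation, 793 several and 12426 none. All 76 enzyme genes matched their RefSeq symbol.

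Groups were compared with limma 3.58.1 (R 4.3.3; lmFit and eBayes) over all probe sets, with Benjamini-Hochberg adjustment and a threshold of 0.05. The fit was tested on simulated data. A rank or permutation test of 3 against 3 arrays cannot go below p = 0.1. Genes described in full were Kdm3a, up to 4 rises and 4 falls per family, and a core list whatever its result; up to 3 genes with the smallest p were named per partner list, and Eed, Suz12, Setd5 and Smyd3 were added after their values were seen. The core genes Hdac3 and Suv39h2 had no probe set of their own, and Dnmt3b was not analysed here. The members, lists and tests were chosen with earlier results of these data known. Alternatives were quantile normalisation, median centring, dim probe sets left out, trend and robust eBayes, array weights, the mean of all probe sets of a gene, the replicate number as a block, and each array left out. No array scanner files or scan batches were used, and the number of arrays limits the precision.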

Additional observations from a re-analysis of the deposited data

How the results depend on the processing

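Of the 30 called enzyme genes 23 kept their call in all 13 alternatives, 7 lost it in at least 1 (Hdac2, Kat6a, Prmt3, Setd1a, Smyd1, Smyd3 and Suv39h1), 9 others gained one, and 0 reversed. Enzyme rises numbered 9 to 11 and falls 15 to 16 with 1 array left out. The median log2 difference of the enzymes was then -0.05 to 0.01. The labels do not say whether same-numbered flasks were handled together. Deviations from the group means correlated at 0.05, -0.10 and -0.02 for same-numbered flasks and at -0.12 to 0.15 for differently numbered ones. With 3 flasks per group these values cannot settle whether the flasks were paired. With the replicate block 11 enzymes rose and 16 fell, PRC2 rises came to 1, mark reader falls to 1 and falls in 2-oxoglutarate, NAD and iron supply to 1. With dim probe sets left out, rises were 2 in arginine methyltransferases and 3 in acetyltransferases, and falls 4 in mark readers and 2 in chaperones. With trend and robust eBayes, rises were 3 in arginine methyltransferases, 3 in acetyltransferases, 6 in HDAC corepressors, 2 in S-adenosylmethionine and acetyl-CoA supply and 5 in 2-oxoglutarate, NAD and iron supply, and falls 2 in acetyltransferases and 2 in chaperones. Median centring gave 2 acetyltransferase rises and 1 mark reader fall, quantile normalisation 2 chaperone falls, and the mean of all probe sets 2 acetyltransferase falls. With 1 array left out, rises were 3 in lysine methyltransferases in every fit, 0 to 1 in acetyltransferases, 0 to 2 in PRC2, 3 to 5 in COMPASS and 5 to 8 in acetyltransferase complexes, and falls 1 to 2 in PRC2, 1 to 2 in COMPASS, 0 to 2 in mark readers, 1 to 3 in 2-oxoglutarate, NAD and iron supply and 1 to 2 in chaperones. The cause was not tested. Probe sets near the level of other-tissue markers, such as Tet1, limit what can be detected.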
